A study of Mus musculus with 6 samples.

Results

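The tumour necrosis factor (TNF) superfamily of ligands and receptors was examined in a mouse pro-B cell line before and after induction of the transcription factor PU.1. Members were the rows of the deposited gene table whose symbol begins with Tnfsf or Tnfrsf and a number, together with Tnf, Lta, Ltb, Ltbr, Fas, Fasl, Cd40, Cd27, Cd70, Eda2r and Ngfr. This rule took 41 of 23793 rows, 15 of them ligands and 26 receptors, and it used no measured value. One ligand row carries the merged symbols of Tnfsf12 and Tnfsf13, so these genes have a single value.

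Ligands of this family are mostly trimeric membrane proteins that can be shed, and they signal through receptors with cysteine-rich extracellular repeats. Receptors with a death domain can recruit caspase adaptors, and most others bind TRAF proteins and activate NF-kB and kinase pathways. In the B lineage the family is known for BAFF, which keeps maturing B cells alive, and for CD40, which receives T cell help. The TNF and lymphotoxin genes are known for shaping lymphoid tissue.

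RNA came from i660BM cells, a C57BL/6 pro-B line (pro-B cells are B cell precursors) with a doxycycline-inducible PU.1. Of the 6 libraries 3 were made without induction and 3 after 48 h of doxycycline at 70 ng/ml. All groups are the same line in medium with interleukin 7, no group received the drug without PU.1 being induced, and effects of drug and factor cannot be told apart. The deposited values are 1 FPKM (fragments scaled to the length of the transcript and the size of the library) per gene and group, so no value per library and no spread between libraries can be given. Nothing in the labels tells separate cultures from repeat libraries of one culture, and the p-values in the table may reflect technical spread only.

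A gene is described as called, or as having risen or fallen, where the authors had tested it with Cuffdiff and their q-value was under 0.05. The log2 change is induced over non-induced, and the value after ± is an implied standard error, that change divided by the authors' test statistic, a relation the table itself does not state. In bulk RNA, fewer cells expressing a gene and less RNA per cell cannot be told apart. The steps between the lowest FPKM values gave an approximate depth of 117000000 fragments for the non-induced and 123000000 for the induced group. Spi1, the PU.1 gene, checked the labels: the authors' deposited table lists it at 36.0 FPKM without and 246 FPKM with induction. Of 15 pro-B and pre-B markers 13 reached 1 FPKM in at least 1 group, while Kit was listed at 0 in both. Their sum was 4573 FPKM before and 6835 FPKM after induction, with 10 of 14 tested called higher and 0 lower. Rag2 reached 1 FPKM only with induction, at 0.00853 and 1.60 FPKM, and was tested but not called. Macrophage and monocyte markers, 10 of 11 of them present in the table, summed to 2.49 FPKM before and 24.8 FPKM after induction, with 5 called higher and 0 lower. Most of the later sum came from Lyz2, at 0.361 and 15.2 FPKM, and Cd68, at 1.85 and 6.86 FPKM, both called higher. The untested markers Csf1r and Emr1 were listed at 0 and 0.192 FPKM and at 0 and 0.0512 FPKM. The 9 T cell markers in the table summed to 109 and 65.6 FPKM, nearly all from Lck and Zap70, with Cd3e and Cd4 listed at 0 in both groups. The 6 NK cell, 7 granulocyte and 7 stromal markers in the table summed to at most 0.0439 FPKM in either group. Dendritic cell markers summed to 0.361 and 4.81 FPKM, most of the later sum from Siglech at 3.98 FPKM. Siglech and Flt3 (0.308 and 0.759 FPKM) were the 2 called higher. Mature B cell markers summed to 45.5 and 15.5 FPKM, nearly all from Cd22, with 2 of 2 tested called lower, and plasma cell markers to 182 and 121 FPKM, with 3 of 5 called lower. The part that any of these markers have in the family's changes was not tested.

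Most tested ligand genes of the family fell. Of the 41 members 22 were tested by the authors and 13 of these were called, 3 higher and 10 lower. Over all 10657 tested genes 35.1% were called, 19% higher and 16.1% lower. Among 7 tested ligands 1 was higher and 5 were lower, with a median log2 change of -0.80. Among 15 tested receptors 2 were higher, 5 were lower and 8 were not called, with a median of -0.18. The median over all tested genes was -0.01. Counting members with both values above 0, tested or not, gave medians of -0.36 for 11 ligands and -0.09 for 21 receptors. Whether ligands and receptors differ was not tested, because single genes of a family are not replicates. At 1.5-fold or more, 1 member was called higher and 6 lower, against 6.34% and 3.85% of all tested genes. At 2-fold or more the members were 1 and 2, against 2.51% and 1.55%. With p-values read from the authors' statistic as a normal deviate, 2 members were higher and 7 lower, against 8.97% and 6.16% of all tested genes (15.1% in either direction).

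**Figure D1:**
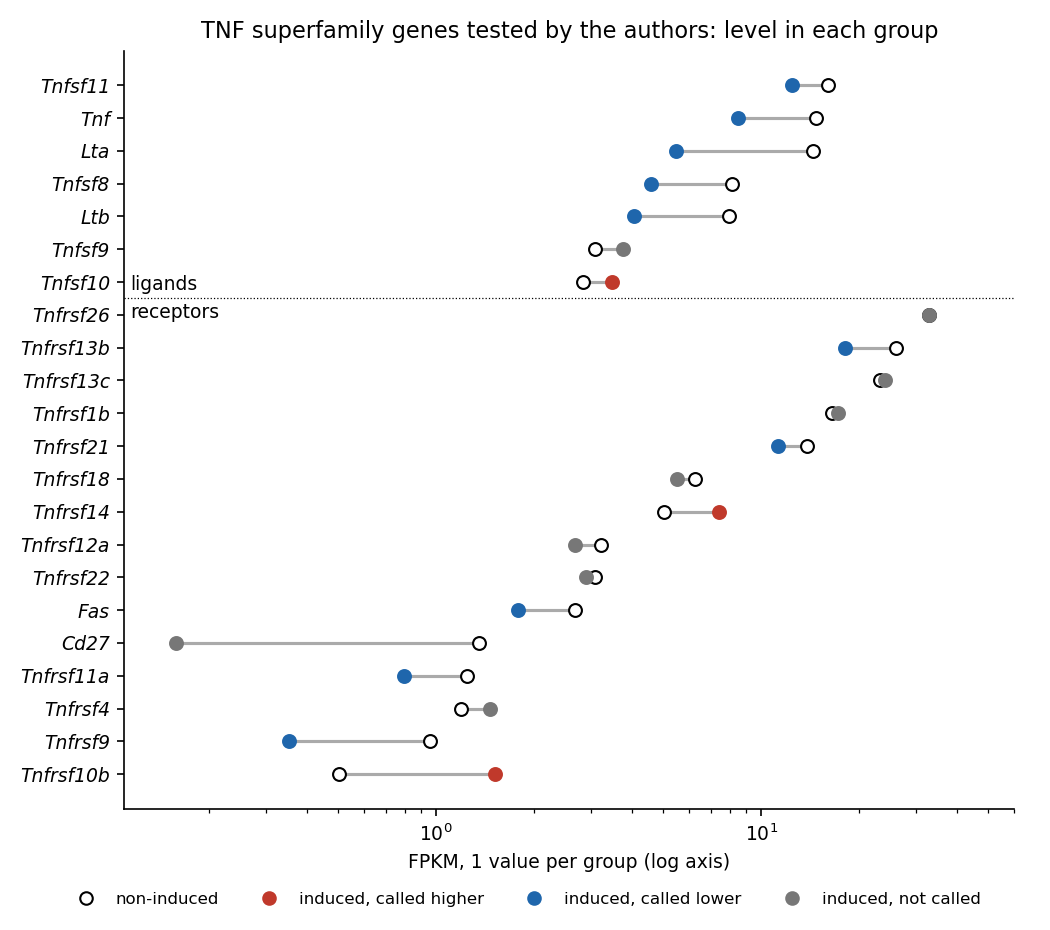
FPKM of the 22 tested members on a log axis, with open circles for non-induced and filled circles for induced cells, coloured by the authors' call, 1 value per group and no error. Levels span 0.158 to 32.9 FPKM, and the blue points of the falling ligands lie left of their open circles.

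All 3 TNF and lymphotoxin genes fell, and the fall of Lta was the largest of any tested ligand. Tnf encodes TNF itself, Lta encodes lymphotoxin alpha, which acts as a homotrimer on the TNF receptors, and Ltb encodes the membrane partner that joins it in the ligand of the lymphotoxin beta receptor. Lta went from 14.5 FPKM without induction to 5.47 FPKM with it. The fall was 2.65-fold, log2 -1.41 ± 0.18 and q = 0.000287 in the authors' deposited table. Ltb went from 7.97 to 4.06 FPKM, log2 -0.97 ± 0.18 and q = 0.000287 in the authors' deposited table. Tnf went from 14.7 to 8.46 FPKM, log2 -0.80 ± 0.17 and q = 0.000287 in the authors' deposited table. Tnf and Lta thus started at like levels, and Lta ended lower. The summed level of the trio was 37.2 FPKM before and 18.0 FPKM after induction.

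These 3 genes lie side by side on chromosome 17 within 10.9 kb (mm10, GENCODE M21). Ltb occupies 35194439 to 35196320 on the plus strand, and Tnf (35199381 to 35202007) and Lta (35203165 to 35205351) lie on the minus strand. All are protein-coding, and a microRNA gene is annotated inside Ltb (Mir6973a) and inside Lta (Mir6974), which gives each a shared locus in the table. Both microRNA rows were untested. Neighbouring genes, looked at after the values of the trio were known, were not called. These were the 3 nearest protein-coding genes with a row on each side. Of these 6 genes 5 were tested and 0 were called, beside 35.1% of all tested genes. Toward Ltb, Lst1 stood at 0.427 and 0.269 FPKM, log2 -0.67 ± 0.76 in the authors' deposited table, and Prrc2a at 115 and 118 FPKM. Aif1, a macrophage gene that was not tested, was listed at 0.160 and 0.0806 FPKM. Toward Lta, Nfkbil1 stood at 12.6 and 12.4 FPKM, Atp6v1g2 at 1.67 and 1.38 FPKM and Ddx39b at 313 and 306 FPKM. Lst1 and Aif1 are thus too low to compare, while Nfkbil1 and Prrc2a had log2 changes of -0.02 and 0.04 in the authors' deposited table. Atp6v1g2, at log2 -0.27 ± 0.22, and Ddx39b, at log2 -0.03 ± 0.49 in the authors' deposited table, had larger implied errors.

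**Figure D2:**
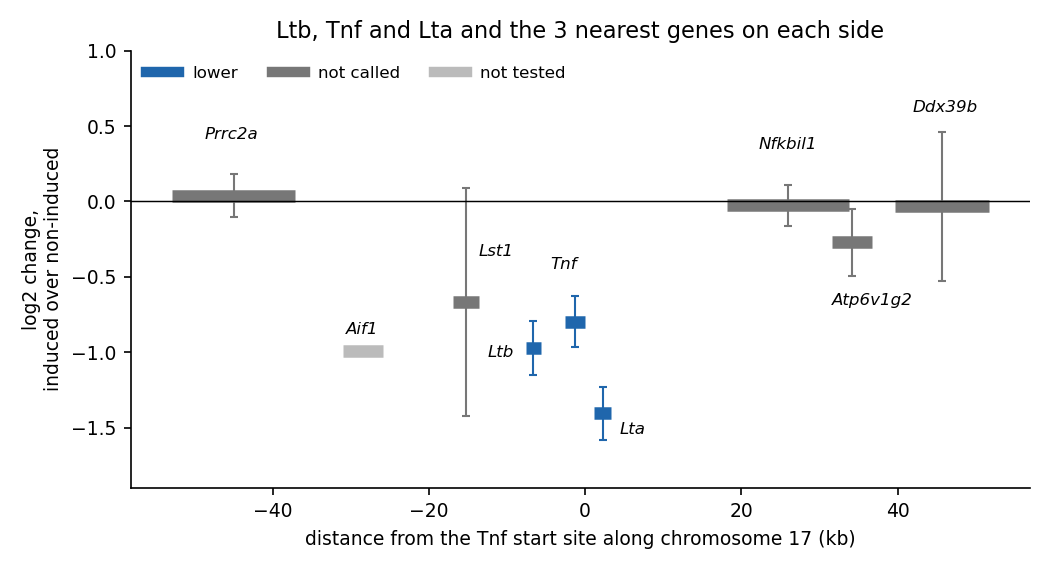
The log2 change (vertical axis) of Ltb, Tnf, Lta and 6 neighbours against distance in kb from the Tnf start site, with horizontal bars for gene bodies and vertical bars for the implied standard error. The 3 blue family genes sit between -0.80 and -1.41, and the 5 tested neighbours were not called.

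The stretches just upstream of the trio are shown because they fell together, and that of Tnfsf10 because it is the ligand gene that rose. They are RefSeq promoter windows (GRCm38.p6, the mm10 assembly), printed 5′ to 3′ on the gene's strand and limited to bases before the GENCODE gene. Capitals mark GAGGAA, the letters at the core of sites that PU.1 is known to favour, or its reverse complement TTCCTC. The lines give Ltb (chr17:35194257-35194438, plus strand), Tnf (chr17:35202008-35202257, minus strand), Lta (chr17:35205352-35205601, minus strand) and Tnfsf10 (chr3:27316827-27317027, plus strand).
Ltb: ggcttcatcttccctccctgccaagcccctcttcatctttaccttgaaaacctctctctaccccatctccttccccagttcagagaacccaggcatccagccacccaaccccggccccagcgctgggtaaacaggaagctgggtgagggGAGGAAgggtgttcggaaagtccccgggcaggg
Tnf: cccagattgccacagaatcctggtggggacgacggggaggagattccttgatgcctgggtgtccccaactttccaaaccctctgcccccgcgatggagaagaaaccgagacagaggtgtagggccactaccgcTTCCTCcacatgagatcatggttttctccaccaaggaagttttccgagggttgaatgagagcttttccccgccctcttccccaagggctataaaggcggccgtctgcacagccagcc
Lta: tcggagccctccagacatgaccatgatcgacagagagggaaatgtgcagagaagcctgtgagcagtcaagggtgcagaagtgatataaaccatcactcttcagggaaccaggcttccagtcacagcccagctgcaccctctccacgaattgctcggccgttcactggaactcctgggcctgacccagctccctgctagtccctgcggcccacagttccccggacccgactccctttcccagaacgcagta
Tnfsf10: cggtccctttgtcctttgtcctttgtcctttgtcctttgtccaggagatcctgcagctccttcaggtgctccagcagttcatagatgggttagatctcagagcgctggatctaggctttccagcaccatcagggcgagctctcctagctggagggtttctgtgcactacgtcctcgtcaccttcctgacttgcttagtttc
In the 250 bases before the RefSeq start, GAGGAA occurred once before Ltb, 101 bases upstream, and once on the opposite strand before Tnf, 117 bases upstream. It did not occur in the windows of Lta and Tnfsf10. Of all 32851 promoter windows of that length 23.3% held it on either strand, as did the windows of 3 of the 12 called members with an entry (Ltb, Tnf and Tnfrsf21). The windows of Tnfrsf1b and Tnfrsf18, members that were tested and not called, held it too. The longer string GAGGAAGT, which contains the shorter one, was in 2.44% of all windows and in 0 of the 18 tested members with an entry. These are letter matches in short windows and show no binding.

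Of the other 4 tested ligand genes, Tnfsf8 and Tnfsf11 fell, Tnfsf10 rose and Tnfsf9 was not called. Tnfsf8 encodes CD30 ligand, a costimulator of lymphocytes. It went from 8.13 to 4.58 FPKM, log2 -0.83 ± 0.17 and q = 0.000287 in the authors' deposited table. Tnfsf11 encodes RANKL, the cytokine that drives osteoclast formation and lymph node development, and it was the most abundant ligand of the family in both groups. It fell from 16.0 to 12.5 FPKM, log2 -0.36 ± 0.14 and q = 0.000287 in the authors' deposited table. Tnfsf10 encodes the death ligand TRAIL and rose from 2.83 to 3.48 FPKM, log2 0.30 ± 0.16 and q = 0.00818 in the authors' deposited table. Tnfsf9 encodes the costimulatory 4-1BB ligand and stood at 3.07 and 3.77 FPKM (log2 0.30 ± 0.26, q = 0.126 in the authors' deposited table). It shares its locus with Gm11110, annotated on the opposite strand, so reads of these genes may have been split. Tnfsf10 and Tnfsf9 thus had nearly the same log2 change, with the smaller implied error for Tnfsf10, the one that was called. With p-values taken from the authors' statistic as a normal deviate, the calls of Tnfsf11 (adjusted p = 0.0771) and Tnfsf10 (adjusted p = 0.266) were lost.

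**Figure D3:**
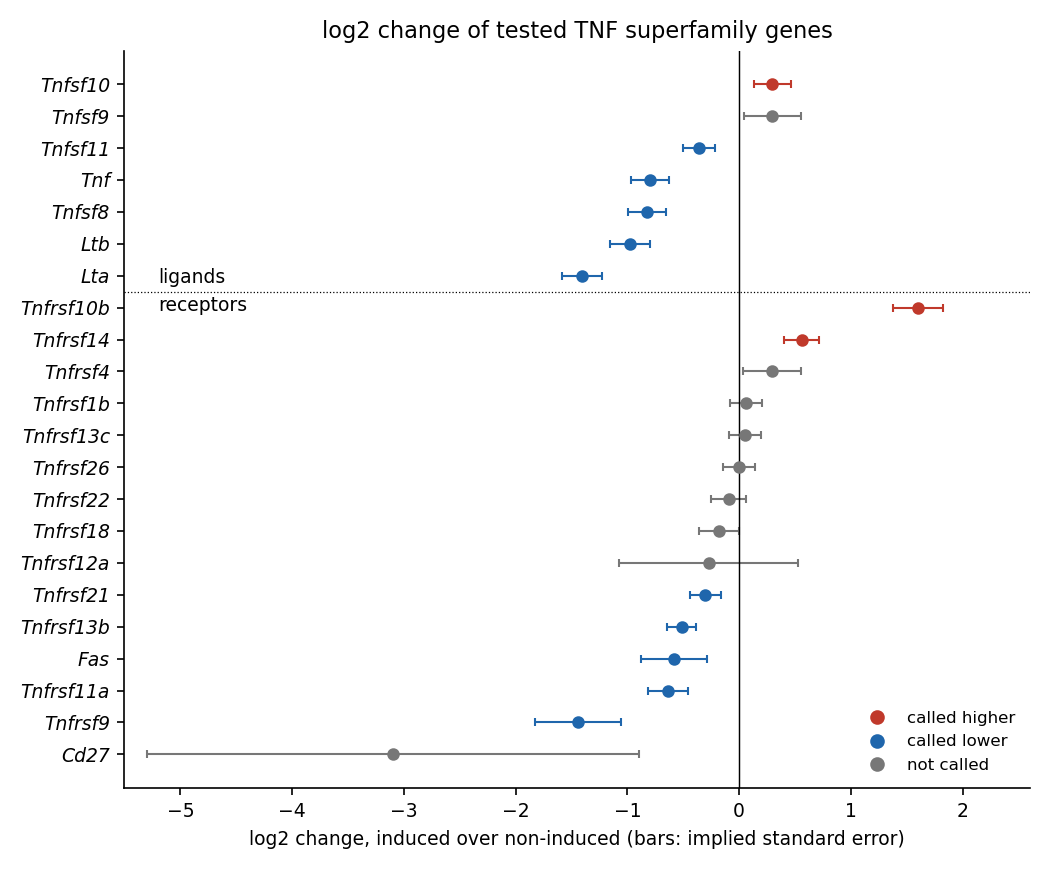
The log2 change of each tested member (horizontal axis), ligands above and receptors below the dotted line, with bars of 1 implied standard error and colours for the authors' call. Of 7 ligands 5 lie left of 0 as called falls, and Cd27 stands apart with a change of -3.10 and a bar that spans more than 4 log2 units.

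Among receptors, the death receptor genes did not move as a group. Tnfrsf10b, which encodes the mouse TRAIL receptor, rose from 0.502 to 1.52 FPKM. Its log2 change of 1.60 ± 0.22 was the highest of any tested member (q = 0.000287 in the authors' deposited table). Fas, the receptor of Fas ligand, went from 2.68 to 1.79 FPKM, log2 -0.58 ± 0.30 and q = 0.00218 in the authors' deposited table. Tnfrsf21, which encodes death receptor 6, went from 13.9 to 11.2 FPKM, log2 -0.30 ± 0.14 and q = 0.00239 in the authors' deposited table. The falls of Fas (adjusted p = 0.209) and Tnfrsf21 (adjusted p = 0.136) were not called with normal p-values from the authors' statistic. The remaining 3 receptors with a death domain in the table, Tnfrsf1a, Tnfrsf25 and Ngfr, were untested, none of them above 0.0119 FPKM.

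The BAFF and APRIL receptors were expressed unequally. Tnfrsf13b, the gene of TACI, stood at 26.0 and 18.2 FPKM, a called fall of log2 -0.52 ± 0.13 and q = 0.000287 in the authors' deposited table. The table's locus for Tnfrsf13b begins downstream of the GENCODE start of the gene. Tnfrsf13c encodes the BAFF receptor and stood at 23.2 and 24.0 FPKM. Its log2 change of 0.05 missed the threshold (q = 0.720 in the authors' deposited table), and a 95% interval taken from the implied standard error reaches from -0.23 to 0.33. The gene of the third receptor, Tnfrsf17 (BCMA), known from plasma cells, was untested at 0.0591 and 0.0468 FPKM. The ligand genes were low in these cells, Tnfsf13b (BAFF) at 0.0739 and 0.112 FPKM and the merged Tnfsf12 and Tnfsf13 row at 0.0109 and 0.0356 FPKM.

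Receptors for TNF and for the ligand LIGHT included the second called rise. Tnfrsf14 encodes HVEM, a receptor for LIGHT and for inhibitory partners on lymphocytes. It rose from 5.04 to 7.44 FPKM, log2 0.56 ± 0.16 and q = 0.000287 in the authors' deposited table. Tnfrsf1b, which encodes TNF receptor 2, was listed at 16.5 FPKM without and 17.3 FPKM with induction, log2 0.06 and q = 0.632 in the authors' deposited table, and missed the threshold. The same kind of 95% interval runs from -0.22 to 0.34. TNF receptor 1, encoded by Tnfrsf1a, was untested at 0.00429 and 0.0119 FPKM, and the lymphotoxin beta receptor gene Ltbr was listed at 0 in both groups.

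Costimulatory receptors were mostly low. Tnfrsf9, which encodes 4-1BB, fell from 0.960 to 0.353 FPKM, a 2.72-fold fall and log2 -1.44 ± 0.39 and q = 0.000287 in the authors' deposited table. Tnfrsf9 overlaps Camta1 on the opposite strand. Tnfrsf18 (GITR) stood at 6.24 and 5.51 FPKM and Tnfrsf4 (OX40) at 1.19 and 1.46 FPKM, and neither was called. Cd27, a receptor of lymphocyte activation, had the largest listed log2 change of any tested member and was not called. It stood at 1.35 and 0.158 FPKM, log2 -3.10 ± 2.20 and q = 0.0809 in the authors' deposited table. On the log2(FPKM + 1) scale its change was -1.02, smaller than that of Lta at -1.26. From the approximate depth these levels correspond to about 132 and 16 fragments. Cd27 shares its locus in the table with Tapbpl and E130112N10Rik and lies inside the span of Vamp1 on the opposite strand, so its reads may have been divided among them. No source used here says whether strand was used in counting. Cd40 and Tnfrsf8 were untested, Cd40 at 0.00520 and 0.0417 FPKM and Tnfrsf8, the CD30 gene, at 0.00572 and 0 FPKM.

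The RANK gene, the receptors known as decoys or without a signalling tail, and the TWEAK receptor gene completed the tested set. Tnfrsf11a, which encodes RANK, went from 1.24 to 0.797 FPKM, log2 -0.64 ± 0.18 and q = 0.000287 in the authors' deposited table. RANK and its ligand RANKL therefore both fell, while the decoy gene Tnfrsf11b (osteoprotegerin) was listed at 0 in both groups. Tnfrsf26 was the most abundant member of the whole family, at 32.9 FPKM in both groups. Its log2 change was 0.00053 ± 0.14 in the authors' deposited table, a 95% interval from -0.28 to 0.28. Tnfrsf22, a TRAIL decoy receptor gene next to it on chromosome 7, was not called at 3.09 and 2.90 FPKM. Its close relative Tnfrsf23 in the same cluster was untested at 0.0393 and 0.0857 FPKM, and reads of such similar genes may have been split. Tnfrsf12a encodes the receptor of TWEAK and stood at 3.22 and 2.67 FPKM, with an implied standard error of 0.80 in the authors' deposited table. It shares its locus with Thoc6, Hcfc1r1 and Ccdc64b and was not called.

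The remaining 19 members were not tested by the authors, and none exceeded 0.203 FPKM in either group. The highest was Tnfrsf19, a receptor known from stem cells and the nervous system, at 0.0850 and 0.203 FPKM. Eda2r, the receptor of an ectodysplasin form, was listed at 0.0438 and 0.0248 FPKM. Fasl (0.00805 and 0.00473 FPKM), Tnfsf15 (0.00393 and 0.00459 FPKM) and Tnfrsf25 (0.00515 and 0 FPKM) correspond to about 2 fragments or fewer per group. Listed at 0 in non-induced cells and between 0.00252 and 0.0124 FPKM in induced cells were Cd70, Tnfsf14, Tnfsf18 and Ngfr. Tnfsf4, Ltbr and Tnfrsf11b were listed at 0 in both groups. Values at or near 0 in untested rows can be failed estimates, and absence cannot be read from them.

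Position in the genome was a property the rule did not use. Besides the Ltb, Tnf and Lta trio, other members are neighbours, and several of these differed widely in level while others did not. On chromosome 17, Tnfsf9 was expressed while Cd70 and Tnfsf14 beside it were at or near 0. On chromosome 4, Tnfsf8 stood at 8.13 FPKM in non-induced cells and its neighbour Tnfsf15 at 0.00393 FPKM. Tnfrsf1b and Tnfrsf8, also neighbours on chromosome 4, stood at 16.5 and 0.00572 FPKM in non-induced cells. On chromosome 1, Tnfsf4, Tnfsf18 and Fasl were all untested, none above 0.0120 FPKM in either group. Tnfrsf4 and Tnfrsf18, neighbours on chromosome 4, stood at 1.19 and 6.24 FPKM in non-induced cells, and neither was called. Ltbr and Tnfrsf1a, close together on chromosome 6, were both at or near 0.

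In a list of known pairs, ligand and receptor genes seldom both reached 1 FPKM. Textbook pairings gave 23 ligand and receptor combinations, of which 3 had both genes at 1 FPKM or more in non-induced cells. These were Tnf with Tnfrsf1b, Lta with Tnfrsf1b, and Tnfsf11 with Tnfrsf11a. In induced cells 3 did as well, but with Tnfsf10 and Tnfrsf10b (3.48 and 1.52 FPKM) in place of Tnfsf11 and Tnfrsf11a (12.5 and 0.797 FPKM). In 7 combinations only the ligand gene reached that level in non-induced cells, among them Ltb with Ltbr and Tnfsf8 with Tnfrsf8. In 9 only the receptor gene did, among them Tnfsf13b with Tnfrsf13b and with Tnfrsf13c, and Fasl with Fas. Combinations share genes, so these counts are not independent. They also depend on the level and on the list, which is not complete. Tnfsf9 with Tnfrsf9 counts as ligand only, because Tnfrsf9, at 0.960 FPKM, was just under the level. The list holds the decoy gene Tnfrsf11b but not Tnfrsf22, described above as a TRAIL decoy receptor gene. Tnfsf10 and Tnfrsf22 stood at 2.83 and 3.09 FPKM in non-induced cells, both above the level. Of the 23 listed combinations, Tnfsf10 with Tnfrsf10b, a TRAIL pair, was the one in which both genes rose. The RANK pair, Tnfsf11 with Tnfrsf11a, was the one in which both fell. With normal p-values from the authors' statistic the call of the ligand gene was lost in each pair, for Tnfsf10 at an adjusted p of 0.266 and for Tnfsf11 at 0.0771.

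**Figure D4:**
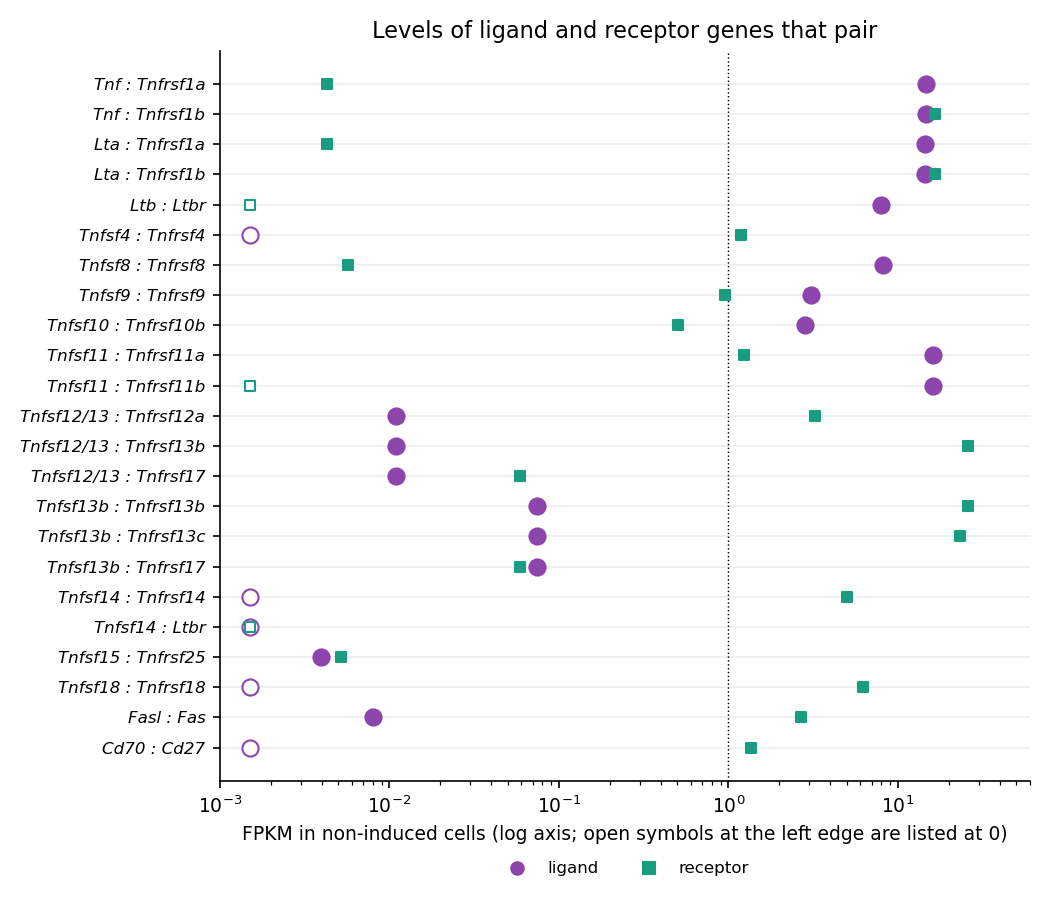
FPKM in non-induced cells (log axis) of the ligand gene (circle) and receptor gene (square) of each of 23 textbook pairings, with open symbols for genes listed at 0 and a dotted line at 1 FPKM. Both symbols lie right of the line in 3 pairings.

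Adaptors and regulators of the receptors, listed together with proteases such as Sppl2b, changed about as often as genes in general. Of 44 adaptors and regulators listed, 43 were in the table and 42 tested, with 10 called higher and 6 lower, or 38.1%, near the 35.1% of all tested genes. Their median log2 change was 0.04. The largest rises were those of Birc3, the ubiquitin ligase cIAP2, and Tnfaip3, the NF-kB inhibitor A20. Birc3 went from 7.75 to 16.6 FPKM (log2 1.10 ± 0.15) and Tnfaip3 from 3.78 to 6.96 FPKM (log2 0.88 ± 0.16) in the authors' deposited table. Rises of Xiap (log2 0.39), Tab2 (0.31), Map3k14 (0.28), the NF-kB inducing kinase, and Tab1 (0.26) were smaller in the authors' deposited table. Traf1, an adaptor of TNF receptor 2, fell from 0.495 to 0.221 FPKM (log2 -1.16 ± 0.37 in the authors' deposited table). Tnip2, a partner of A20, fell from 10.5 to 7.05 FPKM (log2 -0.57 in the authors' deposited table). Sppl2b, a protease that cleaves the membrane stub of TNF, had a log2 change of -0.37, Traf4 one of -0.34, Fadd, the caspase adaptor of death receptors, one of -0.29 and Traf5 one of -0.24 in the authors' deposited table. Ripk1, Traf2, Traf3 and Cyld, which act close to the receptors, were tested and not called. With normal p-values from the authors' statistic the calls came to 3 higher and 3 lower.

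**Figure D5:**
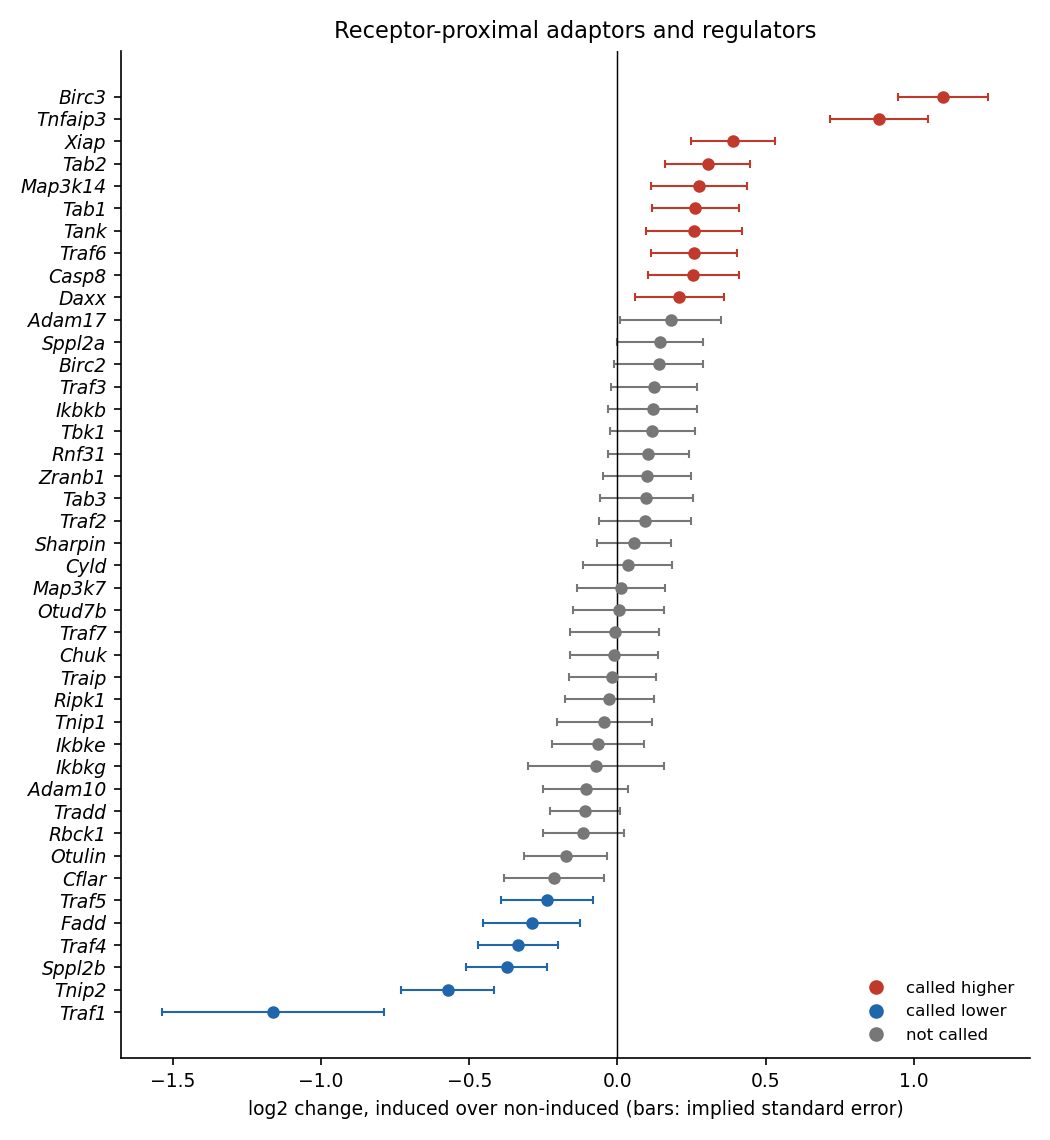
The log2 change of the 42 tested adaptors and regulators (horizontal axis), ordered by change, with bars of 1 implied standard error and colours for the authors' call. Birc3 at 1.10 and Traf1 at -1.16 are the extremes, and 26 grey points were not called.

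A further 4 family genes that the naming rule leaves out were read as well. Relt, an orphan receptor gene of lymphoid tissue, fell from 15.8 to 11.9 FPKM, log2 -0.40 ± 0.14 and q = 0.000287 in the authors' deposited table. The CD40 ligand gene Cd40lg was listed at 0 in both groups, and the ectodysplasin genes Eda and Edar were untested, neither above 0.00841 FPKM.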

How the data were processed

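Messenger RNA libraries of 3 non-induced and 3 induced samples were compared. The submitters' processing notes name the build mm10, trimming with Trim Galore (0.2.8.1), TopHat2 (2.0.9), Cuffdiff (2.1.1) and Cufflinks. The sources used here do not give the gene annotation or strand setting. Per the file headers, the authors deposited FPKM, 1 value per gene and group. They also deposited the log2 fold change, its p-value and q-value, and Cuffdiff's test statistic, which is a score. All were used as they stand. The authors had tested 10657 rows. The lowest p-value of 5e-05 occurs in 1855 rows, and q-values recomputed by the Benjamini-Hochberg method differed by at most 5.15e-07.

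No test per gene was made here, because the table holds no value per library. Members were counted by the authors' calls beside all tested genes. Every member is accounted for, and adaptors are named as the 6 largest called changes in each direction. The members and lists were chosen with earlier results of these data known. Depth was estimated from FPKM steps of genes with 1 transcript of at least 1 kb. Of the lowest values 70.6% (non-induced) and 66.0% (induced) lay within 0.15 of a whole fragment, against 30% for evenly spread values. Coordinates are from GENCODE M21, and promoter windows from RefSeq, in which 32 of 41 symbols matched. The adjustment code was tested on simulated data. Python 3.11.15 with pandas 2.3.3 was used.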

Additional observations from a re-analysis of the deposited data

How the results depend on the processing

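No paired analysis was possible because the table holds group values only, and for the same reason no library could be left out. A threshold of q under 0.01 left the family's counts unchanged at 3 higher and 10 lower, and gave 5 adaptors called higher and 4 lower. The share of all tested genes called was not counted at q under 0.01. Nor was it counted at a mean of 5 FPKM or without shared loci, so counts under these settings have no background beside them. Requiring at least 1.5-fold left 1 higher and 6 lower members (0 and 4 ligands, 1 and 2 receptors; adaptors 2 and 1), and at least 2-fold left 1 and 2 (0 and 1 ligands, 1 and 1 receptors; adaptors 1 and 1). Normal p-values left 0 ligands higher, 3 receptors lower, and 3 adaptors in each direction. At a mean of 5 FPKM or more, 1 member was higher (0 ligands, 1 receptor), 2 receptors were lower, and the receptors' median became 0.00053. Without rows that share a locus, 3 ligands were lower with a median of -0.58, since Lta, Ltb and Tnfsf9 drop out. On the log2(FPKM + 1) scale the changes shrank to 0.75 for Tnfrsf10b, -0.32 for Tnfrsf11a, -0.53 for Tnfrsf9 and, for the uncalled Cd27, -1.02. Under the settings run, 0 called members changed direction, but none of these settings could have reversed a called change. Adding a constant to both values or reading the p-value anew keeps the sign. Subtracting the median of all tested genes (-0.01) moved each change far less than the size of any called one. By the approximate depth, the untested members had few fragments, from 0 in a group to about 65 for Tnfrsf19 in induced cells.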

Other observations

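Genes whose symbol begins with Tnfaip, some named as TNF-induced and others as relatives of Tnfaip8, were looked at after their values were seen. Of 8 such rows 5 were tested, with 4 called higher and 0 lower, beside 19% of all tested genes called higher. Tnfaip8l2, which encodes the immune regulator TIPE2, rose from 10.8 to 21.2 FPKM, and the authors' deposited table gives log2 0.98 for it. Tnfaip8 went from 22.5 to 35.5 FPKM (log2 0.66) and Tnfaip8l1 from 1.14 to 1.92 FPKM (log2 0.76) in the authors' deposited table. The fourth was Tnfaip3, described above. Tnfaip1 stood at 11.8 FPKM in both groups and was not called.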
